A study of Homo sapiens with 12 samples.

Results

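Of 1839 H3K9me3 regions on the chromosome arms of HCT116 cells, 1499 (81.5%) were listed in a single ChIP-seq library. The regions were obtained by merging the H3K9me3 peaks of 4 libraries that lay within 1 kb of each other, which gave 3500 regions over all sequences and 3228 on chromosomes 1 to 22 and X. A region was kept if exactly 1 library had a peak in it and its midpoint lay on chromosomes 1 to 18 or 20 to 22, away from the last 2 Mb at either end and from a window around each centromere (build hg19). The regions were thus chosen by presence in the peak lists, and their counts by library and their peak values are descriptions, and no test was made on them. Each of the 1499 regions turned out to consist of exactly 1 peak, and together they spanned 998 kb.

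Trimethylation of lysine 9 of histone H3 marks constitutive heterochromatin, the compact and mostly silent chromatin of centromeres, repeats and zinc finger gene clusters. Monomethylation of the same lysine, H3K9me1, is a lower step of the same modification and is a substrate for further methylation. The methyl groups come from S-adenosylmethionine (SAM), which cells make from methionine, so the design asked where the 2 degrees of methylation lay before and after the supply of methionine was withdrawn.

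HCT116 is an established colorectal carcinoma cell line, used here at passage 19. The control libraries (0 hr) came from cells in complete RPMI-1640 with serum, and the restricted libraries (24 hr after methionine/SAM depletion) from cells washed and kept in medium without methionine, with serum. Each mark had control libraries A and B and restricted libraries A and B, and an input library existed for each time and letter. Where 4 values follow each other, they are given for the controls A and B and then the restricted A and B. All controls date from 0 hr, so the effect of the medium cannot be told apart from that of a day in culture. The labels do not say that A and B were separate cultures, so the spread between them may be technical.

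The 4 H3K9me3 libraries were sequenced to a like depth but gave lists of unlike length. Per the file headers, they held 33503018 to 35736289 reads, and their inputs 23523460 to 27843707. The lists held 1542 and 941 peaks for controls A and B, and 2038 and 812 for restricted A and B. The longest list came with the shallowest input, at 23523460 reads, and the part of input depth in the list lengths was not tested. A list holds only what passed the peak caller's threshold, so a region missing from a list is not shown to lack the mark there.

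Restricted A alone supplied 764 of the single-library regions, 50.97% of all of them. Control A supplied 421, control B 180 and restricted B 134. The 2 restricted libraries thus stood at the top and at the bottom, with both controls between them, and the counts of the 2 conditions overlapped. By condition, 601 came from a control and 898 from a restricted library, and by letter, 1185 came from an A library and 314 from a B library. Arm regions shared by both libraries of 1 condition and absent from the lists of the other were few: 35 were held by both controls alone and 48 by both restricted libraries alone. Between the conditions, control A and restricted A, the 2 longest lists, shared 92 regions that no other list held, and control B and restricted B shared 5. Control A with restricted B and control B with restricted A shared 22 and 32.

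**Figure D1:**
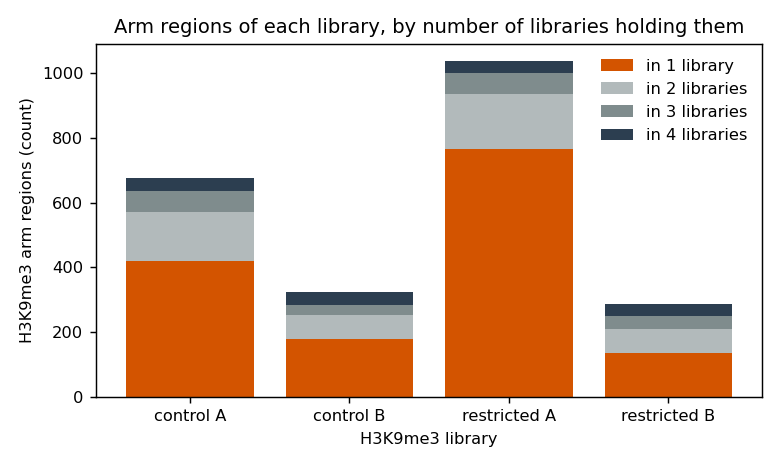
The bars give the number of arm H3K9me3 regions (y axis, count) in each of the 4 H3K9me3 libraries, split by how many libraries held the region. The part held by 1 library is the largest in every bar, from 134 in restricted B to 764 in restricted A.

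Regions that no other library held made up a different share of each list. They were 62.4% of the 675 arm regions of control A (95% Wilson interval 58.7% to 65.9%, which covers counting error only), 55.7% of the 323 of control B (50.3% to 61.0%), 73.6% of the 1038 of restricted A (70.8% to 76.2%) and 46.5% of the 288 of restricted B (40.9% to 52.3%). Within a condition, the longer list had the larger share. Off the arms, beside centromeres, at chromosome ends and on chromosomes 19 and X, 888 of 1389 regions (63.9%) were held by 1 library. Of the remaining arm regions, 234 were held by 2 libraries, 67 by 3 and 39 by all 4.

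Equal list lengths did not remove the single-library regions. When each list was reduced to its strongest peaks so that all 4 had the same number, 796 of 952 arm regions (83.6%) were held by 1 library, 172 and 176 of them from the controls and 260 and 188 from the restricted libraries. Restricted B, the lowest in the full lists, then lay above both controls. Its list is the shortest and was left whole, so its count could not fall while the other lists were cut. The change of order is therefore no finding about the libraries. Leaving out restricted A altogether lowered the count to 915. A −log10 q of at least 2 left 737 single-library regions, and of at least 5 left 65, which was 84.4% of the 77 arm regions then present.

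The single-library peaks were narrow in every list. Their median width was 585 bp and 527.5 bp in the controls and 551.5 bp and 480.5 bp in the restricted libraries. Peaks of arm regions held by several libraries had medians of 831, 744, 807.5 and 662 bp in the same order. The caller's fragment length, 299 to 302 bp, is close to the narrowest width that a peak took, and 36, 27, 74 and 26 of the single-library peaks were within 20 bp of it (8.55%, 15%, 9.69% and 19.4%). Among peaks of several-library regions these shares were 4.62%, 5.59%, 6.12% and 8.39%.

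Their q values were weaker, whereas their fold enrichment was not lower. The q value is the caller's false discovery rate, and a higher −log10 q means a stronger call. The median −log10 q of single-library peaks was 1.69, 1.63, 1.96 and 1.86, and that of the several-library peaks was 2.03, 1.86, 2.28 and 2.15. Fold enrichment is the ratio of the pileup of ChIP reads to the local background, with a constant added to both by the caller. Its medians were 3.29, 3.44, 3.54 and 3.40 at single-library peaks. At several-library peaks the fold medians were 3.01, 3.27, 3.47 and 3.21. In each list the single-library peaks had the higher median fold and the lower median −log10 q.

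The pileup divided by the fold differed as well. This quotient is only a rough index of the local background, since the constant in the fold makes it depend on the pileup too. Its median was 4.66, 4.25, 3.87 and 4.77 at single-library peaks and 7.01, 5.52, 4.62 and 6.17 at several-library peaks. The single-library peaks thus had the lower quotient in all 4 libraries, and the part of the local background in the calls was not tested.

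**Figure D2:**
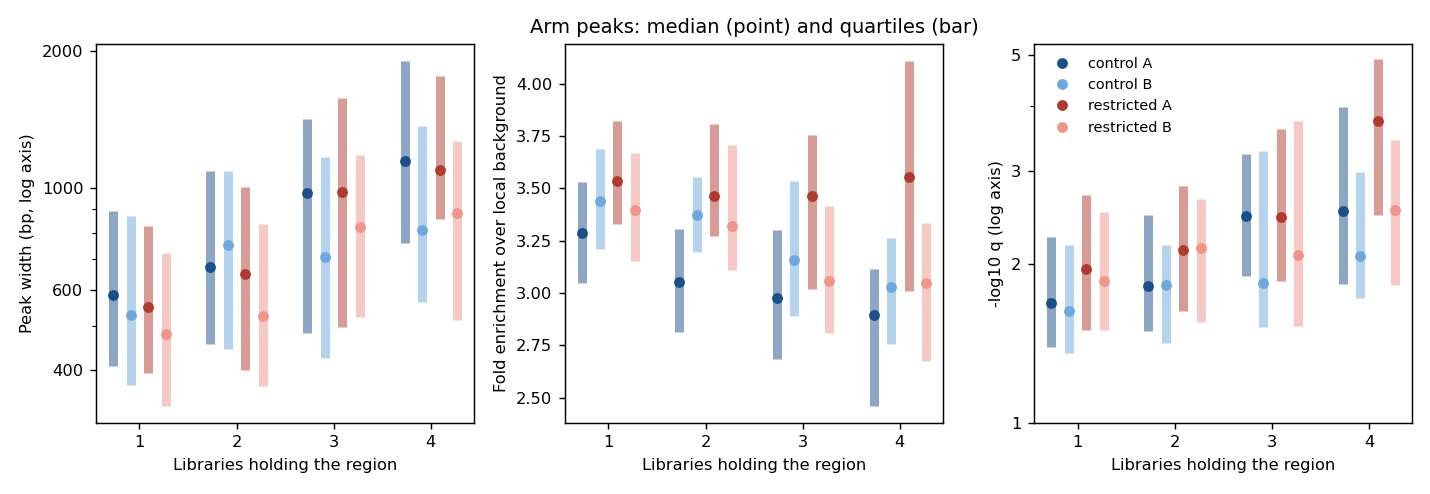
Points give medians and bars quartiles of peak width (bp, log axis), fold enrichment and −log10 q (log axis) for arm peaks of each library, by the number of libraries holding the region (x axis). Median widths at 1 library lie between 480.5 and 585 bp, below the other classes of the same library, while the median fold falls from 1 library to 4 in each list except restricted A.

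Ranked within a list, the strongest calls were still often held by that library alone. In control A the share of single-library peaks fell from 74.7% in the lowest of 4 equal groups by −log10 q to 43.9% in the highest. It went from 66.3% to 46.9% in control B, from 83.8% to 63.2% in restricted A and from 54.2% to 32.9% in restricted B. Ranking by fold gave the opposite order in 3 lists: the share went from 37.6% in the lowest to 78.9% in the highest group of control A, from 35% to 70.4% in control B and from 26.4% to 53.4% in restricted B. In restricted A it was 62.7% in the lowest group and 80.1%, 76.9% and 73.6% in the next ones.

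High folds were commonest in restricted A, in its single-library peaks as in its whole list. A fold of at least 4 was reached by 137 single-library peaks of restricted A (17.9%, against 13.6% of its whole list), 18 of control A (4.28%, against 2.92%), 17 of control B (9.44%, against 3.19%) and 10 of restricted B (7.46%, against 3.57%). Arm peaks of several-library regions reached this fold in 3.85%, 4.20%, 17.99% and 7.10% of cases. The single-library share was thus clearly above that of other arm peaks only in control B. In control A, restricted A and restricted B the shares were close. A −log10 q of at least 5 was rarer among single-library peaks than in the list they came from. It was reached by 4 and 3 in the controls (0.95% and 1.67%) and by 35 and 3 in the restricted libraries (4.58% and 2.24%). The whole lists had 15.2%, 21.9%, 11.4% and 22.5%. Arm peaks of several-library regions lay between, with 6.15%, 6.99%, 6.47% and 5.16%. At the weak end, 71, 32, 103 and 14 single-library peaks (16.9%, 17.8%, 13.5% and 10.4%) had a listed q above 0.05. The caller used cutoffs of 0.05 and 0.1. The listed q is an average over the peak, so a part of such a peak may still have passed 0.05.

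The strongest single regions differed in kind between the libraries. In control A the highest −log10 q, 36.1, was at chr2:33141122-33141526, which combined a pileup of 763 reads with a fold of 1.65. This is a site of very deep coverage in both ChIP and input, unlike most single-library regions. The region of control A with the highest fold, chr10:108079960-108080915, had a fold of 4.62, a pileup of 20.9 reads and a −log10 q of 5.62.

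In control B 1 region led both rankings. The region chr12:130023223-130023688 had a fold of 5.82, the highest of that library, and a −log10 q of 8.77 at a pileup of 23.02 reads. Its nearest peak of another library lay 201686 bp away, in restricted B. The H3K9me1 list of control B covered 78.3% of it, and the other 3 H3K9me1 lists covered none of it.

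Restricted A held the strongest call with both a deep pileup and a high fold. At chr17:64794509-64795759, 1251 bp wide, the pileup was 84.4 reads, the fold 4.71 and the −log10 q 27.03. The nearest peak of another library was 932001 bp away. H3K9me1 regions of restricted A covered all of it (100%) and those of restricted B 75.1%, whereas both control lists covered none. The next in −log10 q were chr10:105010511-105011020, at 13.2, and chr14:100394147-100394738, at 12.7.

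The highest fold of all single-library regions was also in restricted A. It was 5.91, at chr1:224531075-224531415, with a pileup of 20.5 reads and no H3K9me1 in any of the 4 lists. The widest single-library regions came from restricted A too, chr7:152109389-152113496 with 4108 bp and chr1:148848272-148852107 with 3836 bp. The second of these lay only 1537 bp from a peak of control A, just past the merging distance.

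In restricted B the highest −log10 q, 18.05, was at chr9:70003696-70003997, with a pileup of 92.0 reads and a fold of 3.62. This region lay 3846 bp from the edge of the window left out around the centromere of chromosome 9. Next came chr14:77125043-77125345, with a −log10 q of 5.42, a fold of 4.94 and a pileup of 19.5 reads. H3K9me1 of restricted B covered 86.1% of it and H3K9me1 of control A and restricted A none.

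Few single-library regions owed their place to the 1 kb limit. Just outside it, chr8:125986985-125987767 of control A and chr8:125988807-125990062 of restricted B lay 1039 bp apart, with a −log10 q of 1.68 and 1.99. Just inside it, the peaks of chr9:4195221-4197797 (control A, control B and restricted B) were joined over a gap of 976 bp, and 17 several-library regions were joined only by a gap and not by overlap. A peak of another library lay within 2 kb of 18 of the 1499 regions, within 10 kb of 53 (3.54%) and within 100 kb of 318 (21.2%). The median distance to it was 426 kb.

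The median distance to the nearest peak of another library was 351 kb for regions of control A, 259 kb for control B, 556 kb for restricted A and 292 kb for restricted B. The regions of restricted A, which had the fewest peaks of other lists to meet, lay farthest. From a single-library region to the nearest other one of the same library, the median distance was 1090 kb, and 153 had one within 100 kb. Other peaks of the same library were not part of this measure.

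H3K9me1 was the measure that the choice of regions did not use. Its lists were called with a weak p cutoff of 0.1 and cover long stretches of the genome, so each value is read beside the level around it. Only 8 arm chromosomes were listed in all 4 H3K9me1 lists, and 692 single-library regions lay on these. The control lists covered 12.4% and 15.1% of these chromosomes and the restricted lists 5.72% and 14.8%.

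More single-library H3K9me3 regions met H3K9me1 in the restricted lists than in the control lists. An H3K9me1 region overlapped 132 of the 692 (19.1%) in control A and 204 (29.5%) in control B, against 410 (59.2%) in restricted A and 417 (60.3%) in restricted B. Over all 692 regions the 2 conditions did not overlap in this measure. For it, 2 libraries against 2 allow no exact two-sided permutation p below 0.333. Of the 692, 372 were regions of restricted A. Over the 101 regions of control B the conditions did overlap, with 8.91%, 43.6%, 28.7% and 43.6%. The shares over all 1361 H3K9me3 regions of these chromosomes were 17.9%, 28.2%, 57.8% and 58.9%, so the single-library regions were near the background of all H3K9me3 regions. Intervals of the same width 50 kb to either side were overlapped in 32.1%, 34.6%, 17.2% and 35.2% of cases.

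Relative density expresses the same as coverage. It is the share of sequence under H3K9me1 divided by the share covered on all 8 chromosomes in that list, so that 1 is the average of the list. Inside the single-library regions it was 0.517 and 0.698 in the controls and 5.98 and 1.94 in the restricted libraries. In the flanks at 50 kb it was 1.17, 0.999, 1.06 and 0.997. Against these flanks H3K9me1 was lower inside the regions in both controls and higher in both restricted libraries, with inside-to-flank ratios of 0.441, 0.698, 5.65 and 1.95. The regions of control B were an exception in their own list, with a ratio of 1.16. Nearer by, the controls also had a small local maximum: the density was 0.620 and 0.783 within 250 bp of the centre and 0.319 and 0.482 at 500 to 1000 bp. The restricted libraries had 6.54 and 2.06 within 250 bp and 2.54 and 1.13 at 500 to 1000 bp. Regions held by several libraries had densities of 0.330, 0.439, 5.18 and 1.65.

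The library that held the H3K9me3 peak also moved with the H3K9me1 value. The 372 regions of restricted A had an H3K9me1 density of 9.01 in the restricted A list, and 290 of them (77.96%) were overlapped there. The 163 regions of control A had 2.72 in that same list, the 101 of control B 1.94 and the 56 of restricted B 2.98. In the list of control B, the regions of control B had 1.18 and those of control A, restricted A and restricted B had 0.596, 0.661 and 0.398. In the list of restricted B the highest value, 2.77, was again at its own regions, of which 41 of 56 (73.2%) were overlapped, and the others had 1.58, 1.27 and 2.17. In the list of control A its own regions had 0.481, and those of restricted A the highest value, 0.644. These differences between sets of regions were not tested.

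Per the file headers, both marks of a time and letter were called against the same input, and the part of this shared input in these values was not tested. Without the regions of restricted A, the inside-to-flank ratio in the restricted A list was 2.60 in place of 5.65. The strongest H3K9me1 calls of restricted A also lay more often in its own regions, which the other lists showed weakly or not at all. Of the 110 H3K9me1 regions of restricted A with a −log10 p of at least 3, counted over all chromosomes listed, some overlapped 25 of its own 764 single-library H3K9me3 regions and 0 of the 735 regions of the other libraries. At a −log10 p of at least 2, 72 of its own (9.42%) and 4 of the others (0.544%) were overlapped. In restricted B the same threshold gave 3 of 134 own (2.24%) and 33 of 1365 other regions (2.42%), and at least 3 gave 0 and 6. In control B a −log10 p of at least 2 gave 0 of 180 own and 3 of 1319 others, and in control A 5 of 421 (1.19%) and 6 of 1078 (0.557%).

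**Figure D3:**
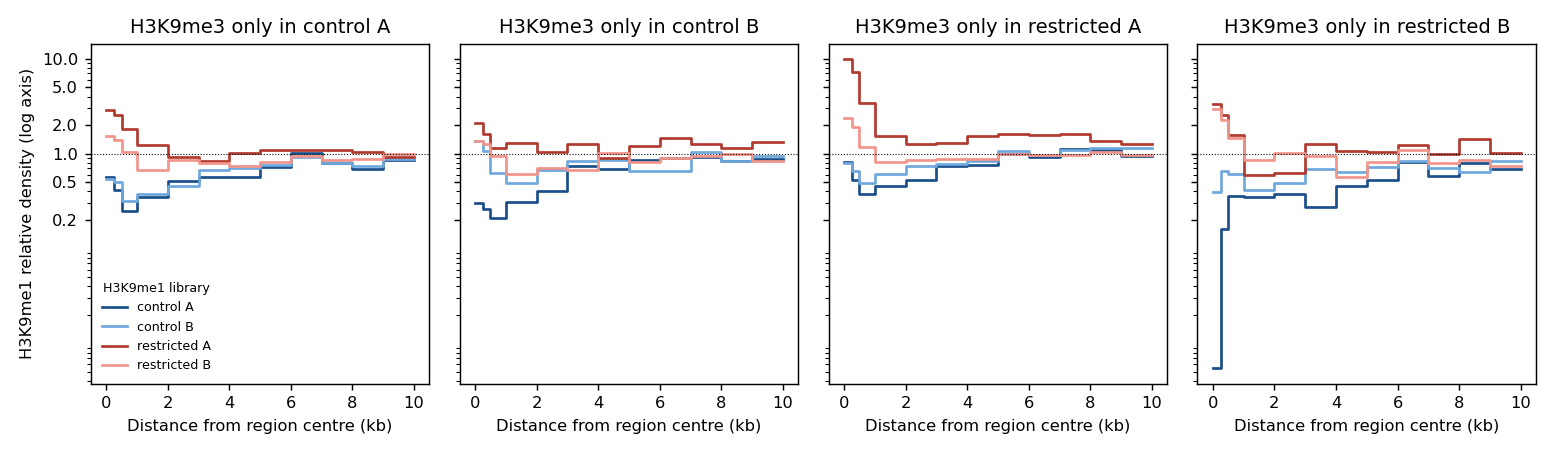
Each panel holds the single-library H3K9me3 regions of 1 library, and lines give the relative density of H3K9me1 in each of the 4 H3K9me1 lists (log axis, 1 is the list's average) against distance from the region's centre (kb). The line of restricted A lies above the others at the centre, highest in the panel of its own regions, where the density over the region was 9.01. The control lines lie lowest between 500 and 2000 bp from the centre, except in the panel of restricted B, where both lie lowest at the centre.

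H3K9me1 in both restricted lists and in neither control list was found at 138 of the 692 regions (19.9%, against 20.6% of all H3K9me3 regions). The reverse, both controls and neither restricted list, was found at 2 (0.289%, against 0.294%). In the flanks the 2 patterns were met in 1.95% and 6.29% of cases. Of the 138, 101 were regions of restricted A (27.2% of its 372) and 13 of restricted B (23.2% of 56). Another 19 were regions of control A (11.7% of 163) and 5 of control B (4.95% of 101). Several-library regions had this pattern in 27.6% of cases, so it was not particular to regions of restricted A. No H3K9me1 list touched 93 of the 692, against 218 of all 1361 H3K9me3 regions.

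Tested over a wider window, the difference in H3K9me1 between the conditions passed at none of the regions. Relative density in 20 kb windows centred on every H3K9me3 region was compared with limma on a log2 scale (restricted minus control, pseudocount 0.1). Of 1347 windows tested, 0 had an adjusted p under 0.05 (0.0%), the smallest adjusted p being 0.134, and 310 (23.0%) had an unadjusted p under 0.05. For the single-library regions these counts were 0 and 112 of 691. The test was tried on simulated windows that all had the same spread, pooled over the real ones, with 200 of 1347 changed. It recovered 0% of log2 changes of 1, 7% of changes of 2 and 97% of changes of 4. Changes of 2 or less were thus mostly not detectable in that setting. The simulated windows had no shift in common and no unequal spread, so the rates for the real windows may differ.

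The windows leaned towards the restricted libraries without passing. Median window densities over the single-library regions were 0.674 and 0.757 in the controls and 1.37 and 0.899 in the restricted libraries, so the 2 restricted medians lay above both controls. With only H3K9me1 regions of −log10 p of at least 1.5 the medians were 0.262, 0.236, 0 and 0.621, and restricted A then lay below both controls. The median log2 difference was 0.70 over the single-library regions, 0.65 over several-library regions and 0.88 over all windows tested. Without scaling it was 0.22 over the single-library regions. With quantile normalization, which gives all 4 libraries the same distribution and so removes by construction any shift that the windows share, it was −0.12, and −0.01 over all windows. Both restricted libraries lay above both controls in 305 of the 691 windows (44.1%, against 49.4% of all) and below both in 48 (6.95%, against 5.27%).

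The windows with the largest differences were on chromosome 12. At chr12:130539313-130539710, an H3K9me3 region of restricted A, the window density was 0.177 and 0.0376 in the controls and 4.09 and 1.15 in the restricted libraries. Both restricted values exceeded both control values, with a log2 difference of 3.55 (SE 0.94, limma adjusted p = 0.134). At chr12:129821217-129821536, of restricted B, the densities were 0, 0, 1.19 and 0.930 (log2 difference 3.53, SE 0.90, limma adjusted p = 0.134). The largest difference in the other direction was at chr10:104604109-104605164, of control A, with 1.57, 1.53, 0 and 0.693 (log2 difference −2.55, SE 1.02, limma adjusted p = 0.170).

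Restricted to the H3K9me3 regions themselves, a setting chosen after the data were seen, the test did make calls. It called 130 of 730 regions, 128 higher in the restricted libraries (17.5%) and 2 lower (0.274%). Among the single-library regions 74 of 385 were called, 73 higher and 1 lower. The direction of these calls is no support for a difference: a region was tested if at least 2 lists had H3K9me1 in it, so the 138 single-library regions with H3K9me1 in both restricted and neither control list entered through the condition in which they were high. Both control values of these regions are 0, with no spread between them.

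By chromosome, the single-library regions were densest on chromosomes 22, 17 and 8. The arms held 62.9 per 100 Mb in all, with 117 on chromosome 22, 115 on chromosome 17 and 102 on chromosome 8. The lowest values were 40.8 on chromosome 4, 41.5 on chromosome 13 and 44.2 on chromosome 3. Restricted A had the highest value on every one of the 21 chromosomes. Restricted B had no single-library region on chromosome 18.

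**Figure D4:**
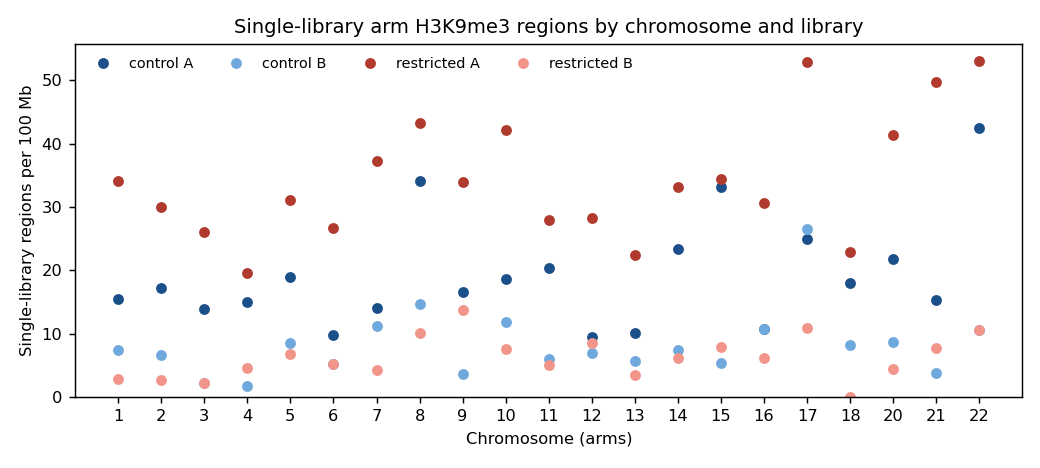
Points give the single-library arm H3K9me3 regions of each library per 100 Mb of arm sequence (y axis) by chromosome (x axis). Restricted A lies at the top on each chromosome, and chromosomes 22, 17 and 8 have the highest sums, at 117, 115 and 102.

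Within chromosomes 8, 10 and 17 the regions gathered on the long arms. HCT116 cells are known to carry extra copies of the outer parts of 8q, 10q and 17q, and these stretches were set apart by hand after the densities had been seen. From 8q13 to the end there were 104 regions, or 135 per 100 Mb, against 53.8 on the rest of chromosome 8. From 10q24 to 10q26 there were 49, or 153 per 100 Mb against 53.2, and from 17q21 to the end 56, or 155 per 100 Mb against 64.3.

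The 3 stretches held 209 single-library regions, 13.9% of them on 6.10% of the arm sequence. Their density was 144 per 100 Mb against 57.6 elsewhere, 2.49 times as high. The ratio was 2.56 for regions of control A, 4.12 for control B, 2.08 for restricted A and 2.70 for restricted B, so it was above 1 in each library and not higher in 1 condition. Arm regions held by several libraries had a ratio of 3.03.

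The quotient of pileup and fold was higher on these stretches too. Its median at single-library peaks there was 5.56, 4.93, 4.52 and 5.99, against 4.56, 4.14, 3.82 and 4.66 elsewhere. At the H3K9me1 regions of control A the quotient was 1.91 against 1.54 on chromosome 8 and 2.20 against 1.55 on chromosome 10. On chromosome 17 it was 2.46 against 1.87. These regions were called against the same input as the H3K9me3 peaks of control A, so they are not an independent measure. The part of the local background in the number of regions called was not tested.

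The same relation held along the other arms. In 223 bins of 10 Mb, the density of single-library regions was 36.3 per 100 Mb in the third of bins with the lowest H3K9me1 background of control A, 56.0 in the middle and 86.8 in the highest. Across these bins, Pearson's r was 0.54 and Spearman's rho 0.56. Off the 3 stretches, in 209 bins, they were 0.47 and 0.51. The bins share the same libraries and the same input of control A, so these values are descriptions.

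**Figure D5:**
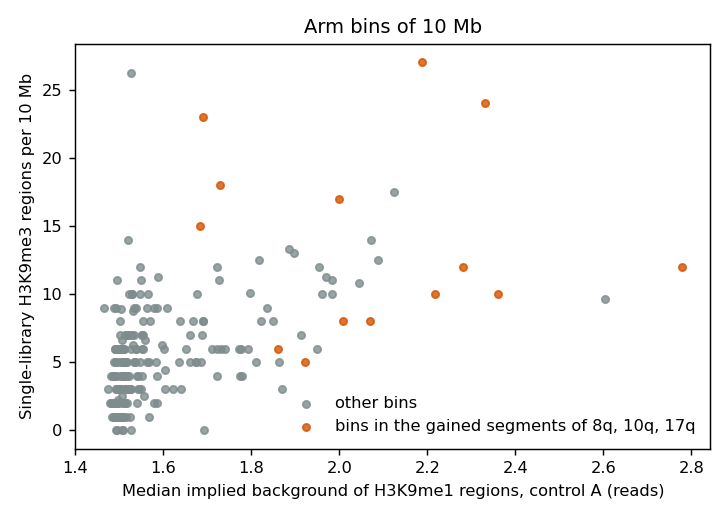
Each point is an arm bin of 10 Mb, with bins in the outer 8q, 10q and 17q in orange. The x axis gives the median of pileup divided by fold over the H3K9me1 regions of control A, labelled as background in reads. The y axis gives the number of single-library H3K9me3 regions per 10 Mb. Bins with a higher quotient tended to hold more regions, with a Pearson's r of 0.54 over 223 bins.

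Windows set by hand around 5 zinc finger gene clusters off chromosome 19, a gene family that often carries this mark, held 13 single-library regions on 6 Mb, or 217 per 100 Mb against 62.9 on all arms. The counts were 2 (3p21), 3 (6p22), 2 (7p22), 2 (7q36, 2 Mb) and 4 (16p13), which is few in each, and the difference from the arms was not tested. Regions held by several libraries lay in these windows too: 1, 0, 1, 0 and 3 in the same order, at 14.3 per 100 Mb on all arms. A high density there was thus not particular to single-library regions. The 1 Mb window of the clustered protocadherin genes at 5q31, which encode adhesion molecules of neurons, held 6, with 2 each from control A, control B and restricted A. The histone gene cluster at 6p22 held 3, all from restricted A. Windows around the HOXB, HOXC and HOXD clusters, the olfactory receptor cluster at 11p15 and FHIT held 0, and the HOXA window held 1. No annotation of hg19 was used, so regions are placed by window and not assigned to a gene, exon or intron.

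The imprinted SNRPN domain at 15q11, where the maternal and paternal copies differ in chromatin, held 6 regions, all from control A, and no several-library region. The protocadherin window held as many, from 3 libraries. They ran from chr15:25307245-25308420 to chr15:25978620-25979218, with folds of 2.34 to 3.28 and −log10 q of 1.29 to 1.87. The widest was chr15:25938808-25940123, at 1316 bp. All 6 had a −log10 q below 2.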

How the data were processed

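H3K9me3 peak lists of 4 libraries and H3K9me1 peak lists of 4 libraries of HCT116 cells were used, grouped by the time and letter in the sample titles. The 4 inputs entered only through the authors' calls. The submitters' processing notes name MACS2 2.1.1.20160309, SAMtools 1.5, Bowtie2 2.1.0 and build hg19; their settings beyond the headers are not given in the sources used here. Per the file headers, MACS2 called broad peaks per library against the input that shares its time and letter, H3K9me3 with q cutoffs of 0.05 and 0.1 and H3K9me1 with p cutoffs of 0.0001 and 0.1. The deposited pileup is a signal, or read coverage. Fold enrichment, as deposited, is a ratio of ChIP signal to local background, with a constant added to both. Each deposited p-value and q-value is given as −log10, and the authors' caller averages all of these over a peak. They were used only within a list.

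The single-library regions, the landmark windows and the gained stretches were chosen with earlier results of these data known. Coordinates are 1-based. Chromosome length was the highest region end in any list. An overlap was at least 1 bp. H3K9me1 density in 20 kb windows was tested with limma 3.58.1 (R 4.3.3; trend and robust; Benjamini-Hochberg; windows with H3K9me1 in at least 2 libraries), with merging, intervals and figures in Python 3.11.15. Interval code and test were tested on simulated data. Regions named were, per library, the widest and those with the highest −log10 q and fold, those nearest the 1 kb limit, those in landmark windows, and the windows with the largest H3K9me1 differences in which both conditions were apart. Of these the text gives a part. An exact permutation test of 2 against 2 libraries cannot give a two-sided p below 0.333, so none was run. Sequences and gene assignments were not analysed here, since no hg19 genome was used. Alternatives were other merging distances, thresholds, windows, pseudocounts, scalings, leaving out each library, and a replicate block.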

Additional observations from a re-analysis of the deposited data

How the results depend on the processing

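The number of single-library regions depended on the threshold and on restricted A. It was 1499, and 1428 to 1536 with other merging distances, 737 with a −log10 q of at least 2, 65 with at least 5 and 796 with lists of equal length. Leaving out 1 library gave 915 to 1445 (915 without restricted A). The share of arm regions held by 1 library, 81.5%, was 84.3%, 84.4% and 83.6% under the 2 thresholds and equal lists, and 83.8% to 86.6% leaving out 1 library. By library, a −log10 q of at least 2 left 166 and 73 in the controls and 421 and 77 in the restricted libraries, and of at least 5 left 10, 4, 46 and 5. Equal lists gave 172 and 176 in the controls and 260 and 188 in the restricted libraries, where the list of restricted B was not cut.

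No 20 kb window was called under any planned setting that kept both libraries of each condition. With the replicate block, 0 were called and the smallest limma adjusted p was 0.127. The unadjusted limma p was then under 0.05 in 92 of 691 single-library windows, against 274 of all 1347. Same-letter H3K9me1 libraries did not deviate together in these windows (r = −0.07 over 1347 windows), so the letter was not taken as a pairing in this test; the H3K9me3 lists were not part of that check. The region itself in place of the window gave 130 calls, 74 at single-library regions. The median log2 difference of 0.70 ranged from 0.49 to 1.02 leaving out 1 library, where a lone library is assumed to vary like the others. It was 0.22 without scaling and −0.12 with quantile normalization, which reversed it and by construction removes a shift shared by the windows.

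The median H3K9me1 density in windows was 0.374 (control A) and 0.540 (control B) in 10 kb and 0.868 and 0.939 in 50 kb. With only H3K9me1 regions of −log10 p of at least 1.5 it was 0.262 and 0.236 in the controls and 0 and 0.621 in restricted A and B, which ends the separation of the conditions. The inside-to-flank ratio of restricted A, 5.65 with all H3K9me1 regions, was then 30.5. With all H3K9me1 regions it was 2.60 without the H3K9me3 regions of restricted A, which share its time and letter. These ratio settings, the region itself and the gained stretches were added after the data were seen. In the simulated 20 kb windows, log2 changes of 1 and 2 were mostly not detectable at a spread pooled over the windows. Depth and the number of changed windows were not varied.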

Other observations

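Single-library H3K9me3 regions of different libraries lay in the same Mb at several places without meeting within 1 kb. The most crowded Mb, chr17:50000001-51000000, held 10 such regions, 4 from control A, 4 from control B and 2 from restricted A, and no several-library region. The Mb chr5:2000001-3000000 and chr8:138000001-139000000 held 9 each, from all 4 libraries. Of 943 Mb with a single-library region, 606 held exactly 1, and 9 held regions of all 4 libraries.

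On 15q, the Mb next to the SNRPN window, chr15:26000001-27000000, held 7 regions, 4 from control A, 2 from restricted A and 1 from restricted B. The following Mb, chr15:27000001-28000000, held 6, of which 3 came from restricted B. The windows of MACROD2 at 20p12 and CNTNAP2 at 7q35, both very long genes at fragile sites, held 4 and 3 single-library regions, and that of WWOX at 16q23 held 1.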
